A study of Mus musculus with 6 samples.

Results

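Expression of 33 interferon response and antigen presentation genes was followed in ovarian surface epithelium cells of the mouse that were sorted by aldehyde dehydrogenase (ALDH) activity. The genes were chosen by name, and a gene was represented by its brightest probe set, among those annotated to that gene alone, over the 6 arrays. This gave values for 31 of the 33 genes, out of 18193 genes that the array represents in this way. Isg15 has no probe set of its own, since its 1 probe set carries another gene symbol as well, and Ifi44 was not matched to a single-gene probe set. The 31 genes fall into 9 of class I antigen presentation, 6 of interferon signalling and 16 antiviral effectors and guanylate-binding proteins.

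Both groups came from virgin FVB/N females aged 8 weeks, whose ovarian surface cells were cultured for 24 hours and stained with ALDEFLUOR, a fluorescent reporter of ALDH activity. The ALDH-positive and the ALDH-negative cells were collected by flow cytometry from each of 3 pools of 10 mice, so that each group holds 3 samples and each pool gives a pair. No genetic modification and no interferon treatment is named in the labels, and both groups passed through the same culture, staining and sort. Each sample is a bulk measurement of a sorted population, in which fewer cells of a type and less RNA per cell cannot be told apart.

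Interferons are secreted proteins that warn neighbouring cells of infection. Type I interferons signal through Ifnar1 and Ifnar2 to a complex with Stat2 and Irf9, which binds the interferon-stimulated response element, while interferon gamma signals through Ifngr1 and Ifngr2 to gamma-activated sites. Their targets include direct antiviral effectors and the machinery that cuts cytosolic proteins into peptides (the immunoproteasome), pumps the peptides into the endoplasmic reticulum (Tap1 and Tap2) and displays them on class I molecules (H2-K1 and H2-D1 with B2m).

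Values are log2 signals after quantile normalization, which gives each array the same distribution, and differences are ALDH-positive minus ALDH-negative, averaged over the pools. Across all genes the median difference was -0.094, and it was 0.059 when arrays were instead centred on their median. Pool 2 held an array that stood apart, that of its ALDH-negative cells. In the values as deposited its correlations across probe sets with the other arrays were 0.561 to 0.687. The other arrays correlated at 0.845 to 0.974 among themselves. After quantile normalization the array that stood apart held the highest of the 6 values for 44.2% of all genes and the lowest for 26.9%. Differences are therefore also given without pool 2 where that pool holds much of them. Probe sets with a mean below a log2 level of 2.73 were not tested, and no detection call was used for dimmer values.

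None of the 23 tested members passed an adjusted p of 0.05 (limma with the pool as a block, Benjamini-Hochberg over 27022 probe sets), and 0% of all probe sets did. The smallest adjusted p of a member was 0.895. Over all probe sets 661 (2.45%) reached an unadjusted p under 0.05 in either direction. At that level 3 of the 23 were higher in ALDH-positive cells and 0 lower, beside 1.93% and 0.429% of the 12814 genes tested. These 3 were Gbp2, Oasl2 and Ifitm3, of which Gbp2 passed the filter on low values only through its ALDH-positive samples, so that the count is a description. The mean difference was above 0 in 20 of the 31 genes and below 0 in 11 (23 and 8 with median-centred arrays), while 43.1% of all genes lay higher (54.3% with median-centred arrays). The median difference of the 31 was 0.16. Of the 31, 11 were higher in all 3 pools and 1, Tap1, was lower in all 3, beside 10.2% and 11.8% of all genes. In 6 members every ALDH-positive value lay above every ALDH-negative value, beside 3.42% of all genes; 4 did so in the values as deposited. The reverse held for 0 members, beside 3.81% of all genes.

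**Figure D1:**
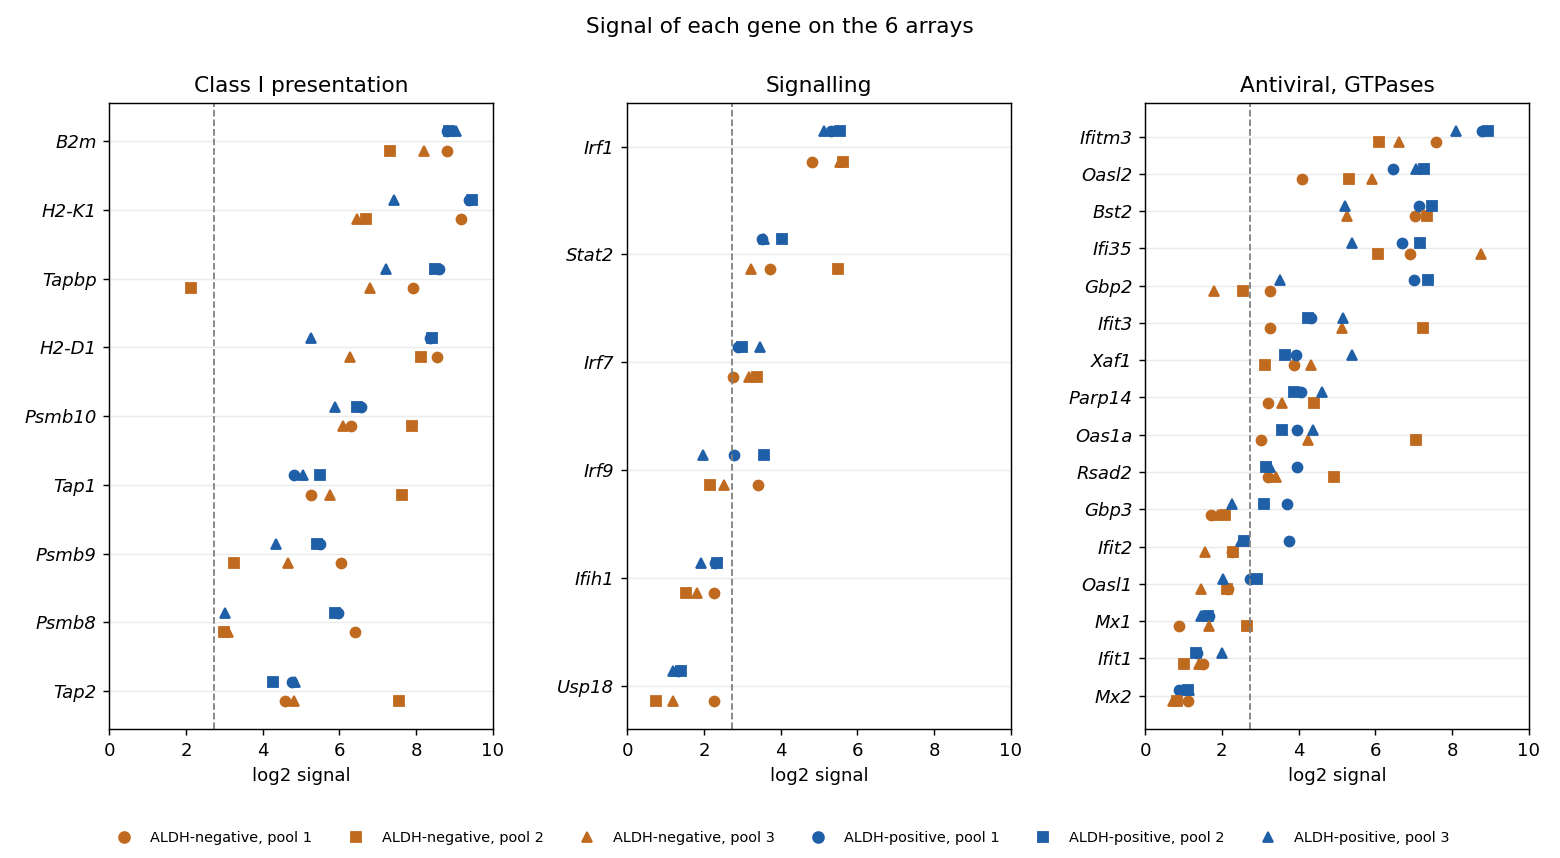
Log2 signal (horizontal axis) of each of the 31 genes on the 6 arrays, in 3 panels by role; orange marks are ALDH-negative and blue marks ALDH-positive samples, the shape gives the pool, and the dashed line is the level of 2.73 below which a mean was not tested. Gbp2, Oasl2 and Ifitm3 have all blue marks to the right of all orange marks, while many class I genes have the orange square of pool 2 far from the other values.

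Guanylate-binding proteins are large GTPases, strongly induced by interferon gamma, that attack intracellular pathogens and the vacuoles that shelter them. Gbp2 showed the largest mean difference of the members in the fit without array weights. It read 3.26, 2.56 and 1.80 in the ALDH-negative samples of pools 1, 2 and 3 against 7.0, 7.37 and 3.52 in the ALDH-positive samples. The fractions did not overlap, and the ALDH-positive sample of pool 3 was much nearer to the ALDH-negative values than those of pools 1 and 2. The mean log2 difference was 3.42 (SE 0.79, n = 3 pools), a 10.7-fold higher signal against an ALDH-negative mean of 2.54 that lies below the filter level. Its limma p was 0.00291 unadjusted and 0.895 adjusted. Without pool 2 the difference was 2.73.

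The other probe set of Gbp2 was also higher in the ALDH-positive sample of each pool. It read 2.32, 1.49 and 2.38 in the ALDH-negative samples against 5.70, 6.37 and 3.67 in the ALDH-positive samples of pools 1 to 3, a difference of 3.18 (SE 0.83). Its fractions did not overlap either, and pool 3 again gave the smallest difference. All its ALDH-negative values lay below the filter level, so that it passed the filter only through its ALDH-positive samples. Probes of both sets hybridised to the same RNA samples, so that they repeat the detection and not the sampling of animals. The dimmer one is of a type that Affymetrix marks as able to bind other sequences, such as those of related family members, which was not tested.

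Gbp3, a neighbouring member of the family, had a mean below the filter level and was not tested. It read 1.73, 2.08 and 1.90 in the ALDH-negative samples against 3.70, 3.10 and 2.26 in the ALDH-positive samples. The fractions did not overlap, and only the ALDH-positive samples of pools 1 and 2 exceeded the filter level. The difference was 1.12 (SD of the 3 pools 0.81), with no test, and 1.17 without pool 2. In the values as deposited Gbp3 was still higher in all 3 pools, though its fractions overlapped. Gbp7, a family member taken from a list of other interferon-stimulated genes, did not separate the fractions. ALDH-positive cells read 1.34 and 1.09 higher in pools 1 and 3, but pool 2 gave -1.63. Averaged over the pools, Gbp7 came to 0.26 (SE 0.80), against 1.21 with pool 2 left out.

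**Figure D2:**
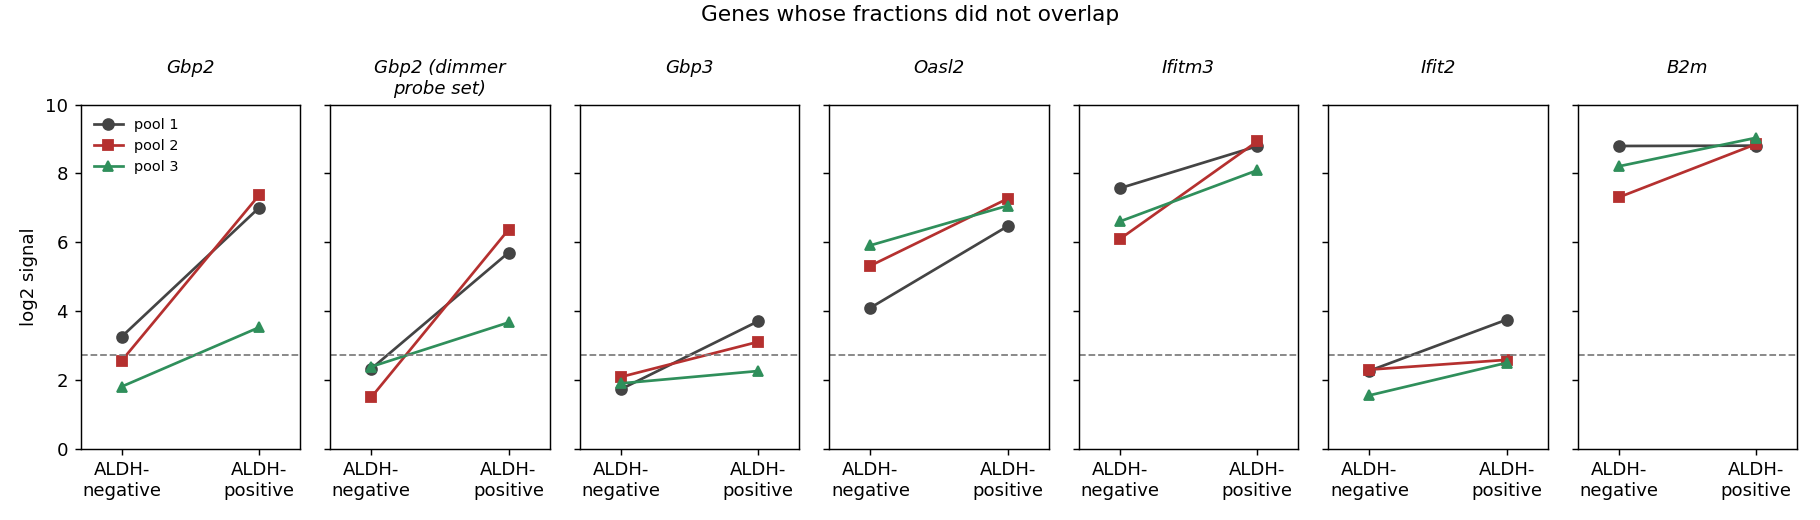
Log2 signal (vertical axis) in the ALDH-negative and the ALDH-positive sample of each pool, joined by a line per pool, for the 6 genes whose fractions did not overlap, with both probe sets of Gbp2; the dashed line is the filter level of 2.73. The Gbp2 lines are steep in pools 1 and 2 and less so in pool 3 on both probe sets, and the B2m line of pool 1 is flat.

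The sequences before the starts of Gbp2 and Gbp3 are shown because these genes lay higher together, and that of Ifit1 because it is a textbook interferon target that was dim on every array. They are given 5' to 3' on the gene's strand, from RefSeq on GRCm38.p6, and end at the base before the annotated start. Capitals mark matches to the response element core GAAANNGAA or its reverse complement TTCNNTTTC. The stretches are chr3:142620413-142620662 (plus strand), chr3:142559794-142560043 (plus strand) and chr19:34640639-34640888 (plus strand).
Gbp2: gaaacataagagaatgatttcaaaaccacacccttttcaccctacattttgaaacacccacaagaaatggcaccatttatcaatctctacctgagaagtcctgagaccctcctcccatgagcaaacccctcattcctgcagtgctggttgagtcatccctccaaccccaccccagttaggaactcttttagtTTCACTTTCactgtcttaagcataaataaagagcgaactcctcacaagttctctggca
Gbp3: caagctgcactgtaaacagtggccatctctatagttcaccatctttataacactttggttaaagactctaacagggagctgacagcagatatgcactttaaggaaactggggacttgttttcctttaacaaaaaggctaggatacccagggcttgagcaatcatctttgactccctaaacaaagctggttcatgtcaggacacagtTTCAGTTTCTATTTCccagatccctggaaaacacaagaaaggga
Ifit1: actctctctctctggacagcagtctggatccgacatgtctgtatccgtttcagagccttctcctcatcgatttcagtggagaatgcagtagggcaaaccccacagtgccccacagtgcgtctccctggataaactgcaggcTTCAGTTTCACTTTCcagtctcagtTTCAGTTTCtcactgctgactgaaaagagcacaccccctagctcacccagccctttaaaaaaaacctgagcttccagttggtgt
Gbp2 holds 1 match, at position -58 from the start, Gbp3 holds 2 that overlap, and Ifit1 holds 3.

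Promoter windows of 300 bases, with 250 before the start, were found for 28 of the 33 genes. The core, searched on both strands, matched in 13 of the 28, beside 9.76% of the 27025 genes in the table. By role it matched in 10 of 15 antiviral genes, 2 of 5 signalling genes (Stat2 and Ifih1) and 1 of 8 class I genes (B2m). The gamma-activated site TTCNNNGAA, which is its own reverse complement and may overlap the core, matched in 7 of the 28 and in 9.55% of all genes. A match is a description of the letters and not a measured binding site. Among the members whose fractions did not overlap, Gbp2, Gbp3, Ifitm3 and B2m held the core, and Oasl2 and Ifit2 did not. Among the other members with values, Ifit1, Ifit3, Oas1a, Rsad2, Bst2, Stat2 and Ifih1 held it. Oasl2 and Oasl1 held neither motif in this window. A link between motif and difference was not tested.

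Oasl2 encodes an antiviral protein with ubiquitin-like domains, related to the oligoadenylate synthetases. It read 4.09, 5.32 and 5.91 in the ALDH-negative samples against 6.47, 7.27 and 7.06 in the ALDH-positive samples. Every ALDH-positive value exceeded every ALDH-negative one, and all 6 lay above the filter level. The difference was 1.82 (SE 0.66; limma unadjusted p = 0.026, adjusted p = 0.895), or 3.54-fold, and 1.76 without pool 2.

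Ifitm3, a membrane protein that blocks the fusion of viruses with endosomes, read 7.57, 6.09 and 6.6 in the ALDH-negative samples against 8.79, 8.93 and 8.09 in the ALDH-positive samples. The fractions did not overlap, and the lowest value was that of the array that stood apart. The difference was 1.85 (SE 0.68; limma unadjusted p = 0.0286, adjusted p = 0.895), or 3.60-fold, and 1.35 without pool 2. When limma weighted arrays by their estimated quality, Gbp2 (adjusted p = 0.00397), Ifitm3 (adjusted p = 0.0166) and Oasl2 (adjusted p = 0.0239) passed as higher. Gbp2 entered that fit only through its ALDH-positive samples, so that its call is a description. Ifi35 passed as lower, by -2.60, in that limma fit (adjusted p = 0.00378), in which 2953 of the 27022 probe sets tested passed.

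Ifi35, a leucine zipper protein that modulates innate signalling, read 6.90, 6.06 and 8.74 in the ALDH-negative samples against 6.69, 7.15 and 5.39 in the ALDH-positive samples. Its values overlapped, and the difference of -0.82 (SE 0.93) held -3.35 in pool 3 and became 0.44 without that pool. Its other probe sets gave -1.94 and 0.12, and -0.50 and -0.076 without pool 2.

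The antiviral group of 16 had a median difference of 0.35, with 11 genes higher and 5 lower, and 7 were higher in all 3 pools. The median was 0.55 without pool 2, 0.60 on median-centred arrays and 0.11 with averaged probe sets. Its other members were dim or did not separate the fractions. Ifit2, whose protein binds viral RNA, read 2.26, 2.30 and 1.55 in the ALDH-negative samples against 3.75, 2.58 and 2.49 in the ALDH-positive samples. These values did not overlap, but 1 of them, in ALDH-positive cells of pool 1, lay above the filter level, and the fractions overlapped in the values as deposited. Its difference was 0.91 (SD of the 3 pools 0.60). Oasl1, a translational regulator of Irf7, was 0.57, 0.78 and 0.58 higher in pools 1 to 3, with 1 of 6 values above the filter level.

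Ifit1 lay below the filter level on all 6 arrays, as did Mx1 and Mx2, the dynamin-like restriction factors. Ifit1 ranged from 1.02 to 2.01, Mx1 from 0.88 to 2.65 and Mx2 from 0.72 to 1.15. Their differences of 0.25, -0.14 and 0.16 carry no test.

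Mx1 and another 3 effectors were highest on the array that stood apart. These are 4 of the 16 antiviral genes, beside 44.2% of all genes. Ifit3, which forms complexes with Ifit1, read 7.25 on that array, against 3.26 to 5.17 elsewhere. Oas1a, a synthase of the RNase L activator, read 7.07 against 3.01 to 4.36, and Rsad2, the antiviral enzyme viperin, 4.94 against 3.14 to 3.96. Their mean differences of -0.63, -0.82 and -0.40 became 0.55, 0.53 and 0.30 without pool 2.

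Bst2, or tetherin, which holds budding virions on the cell surface, read 7.03, 7.35 and 5.27 in the ALDH-negative samples against 7.14, 7.48 and 5.20 in the ALDH-positive samples. The fractions of each pool lay within 0.13 of each other, while pool 3 was lower in both, and the difference was 0.057 (SE 0.63). It was 0.59 without quantile normalization and 0.76 on median-centred arrays. Xaf1, an antagonist of an apoptosis inhibitor, was higher in all 3 pools, at 0.046, 0.53 and 1.06 (mean 0.55, SE 0.65), and its other probe set gave -0.65, and 0.26 without pool 2. Parp14, an ADP-ribosyltransferase, differed by 0.46 (SE 0.68), and by -0.48 on its other probe set. Without pool 2 these values were 0.94 and 0.17, and on median-centred arrays the fractions of Parp14 did not overlap.

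**Figure D3:**
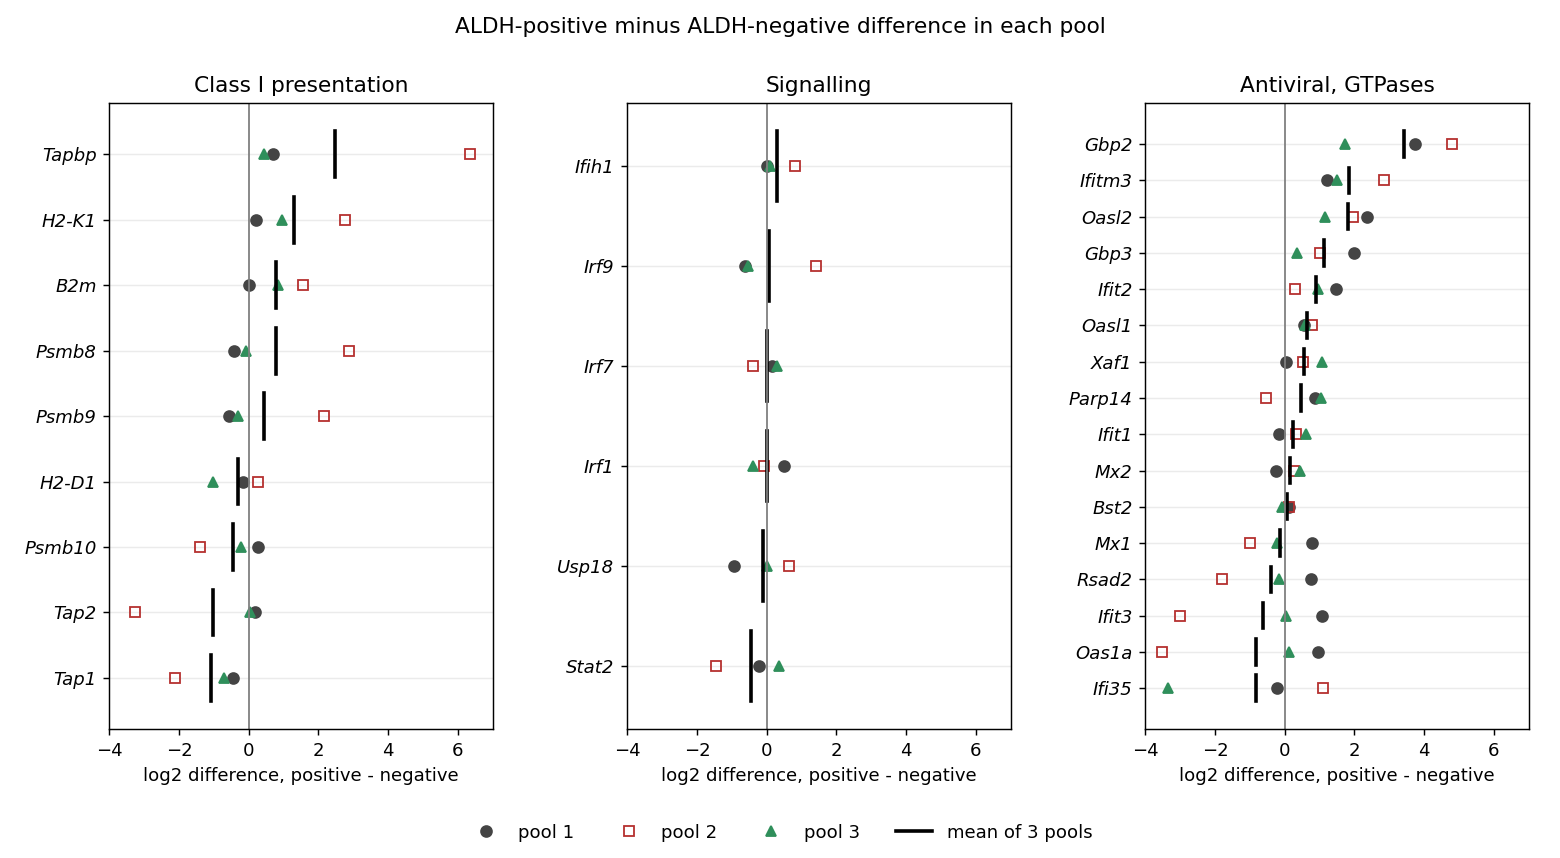
Log2 difference of ALDH-positive minus ALDH-negative cells (horizontal axis) in each pool for the 31 genes, in 3 panels by role; filled circles are pool 1, open squares pool 2, triangles pool 3, and the bar is the mean. Tapbp, Tap2, Oas1a and Ifit3 have open squares far from the other pools, whereas Gbp2, Ifitm3 and Oasl2 have all 3 marks above 1.

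The signalling genes showed no separation of the fractions. Their median difference was 0.013, with -0.10, 0.28 and 0.046 in pools 1 to 3, and 0 of the 4 tested reached an unadjusted p under 0.05 in the limma fit. Irf1, a transcription factor of the interferon gamma response, read 4.82, 5.62 and 5.54 in the ALDH-negative samples against 5.32, 5.55 and 5.14 in the ALDH-positive samples, a difference of 0.010 (SE 0.65). Irf7, the amplifier of type I interferon production, read 2.75, 3.38 and 3.18 against 2.89, 3.0 and 3.47, a difference of 0.015 (SE 0.64). The fractions overlapped in both genes.

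Stat2 differed by -0.44 (SE 0.69), with 5.49 on the array that stood apart and 3.22 to 4.04 on the others, and by 0.069 without pool 2. Its other probe set differed by 0.49, and by -0.31 without pool 2. Irf9, the DNA-binding partner of Stat2, differed by 0.077 (SE 0.72), and by -0.59 without pool 2. Usp18, which removes Isg15 from proteins and dampens the receptor, and Ifih1, the cytosolic RNA sensor MDA5, stayed below the filter level on all 6 arrays, with ranges of 0.76 to 2.27 and 1.54 to 2.34.

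Class I genes lay above the filter level on all 6 arrays in 8 of 9 cases, and Tapbp did so on 5 arrays. Their median difference was 0.44, but the pools gave 0.010, 1.55 and -0.078. It was 0.021 without pool 2 and -0.076 with array weights. Of the 9 genes, 5 lay higher and 4 lower, and 0 reached an unadjusted p under 0.05 in the limma fit. On the array that stood apart, 4 of the 9 had their lowest value and 3 their highest, beside 26.9% and 44.2% of all genes.

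B2m, the invariant light chain that every class I molecule needs, read 8.80, 7.31 and 8.21 in the ALDH-negative samples against 8.81, 8.86 and 9.04 in the ALDH-positive samples. The fractions did not overlap, but the margin was 0.01 in pool 1, and they overlapped with median-centred arrays. The difference was 0.80 (SE 0.67). It was 0.42 without pool 2, 1.39 without quantile normalization and 1.56 on median-centred arrays. The other B2m probe set differed by 0.05, 6.26 and 0.86 in pools 1 to 3, with 2.48 on the array that stood apart.

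The heavy chain gene H2-K1 read 9.18, 6.70 and 6.46 in the ALDH-negative samples against 9.37, 9.47 and 7.41 in the ALDH-positive samples. It was higher in each pool, but its values overlapped, since ALDH-negative cells of pool 1 exceeded ALDH-positive cells of pool 3. The difference was 1.31 (SE 0.74), and 0.57 without pool 2. H2-D1 read 8.53, 8.13 and 6.29 against 8.36, 8.41 and 5.26, a difference of -0.31 (SE 0.66) that became 0.33 without quantile normalization and 0.50 on median-centred arrays.

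Heavy chain genes are near-identical and highly polymorphic, so that their probe sets can share RNA and can differ in their match to FVB/N alleles, neither of which was tested. Of the 4 probe sets of H2-K1, all of a type that Affymetrix marks as able to bind other sequences, 3 lay higher and 1 lower, from -0.19 to 1.31. Of the 9 of H2-D1, 7 are of that type, 4 lay higher and 5 lower, from -1.37 to 0.99. Without pool 2 the probe sets of H2-K1 all lay higher, by 0.013 to 0.57, while those of H2-D1 ranged from -0.60 to 0.43.

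**Figure D4:**
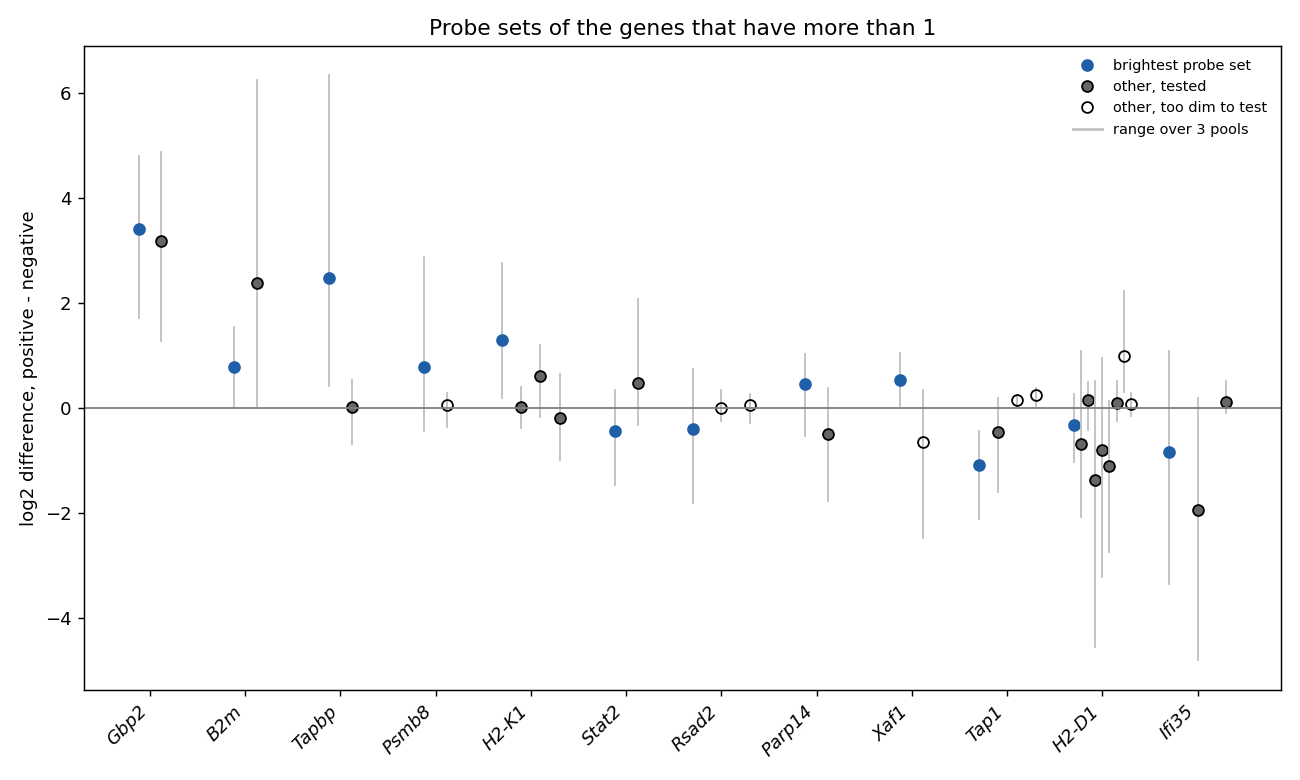
Mean log2 difference of ALDH-positive minus ALDH-negative cells (vertical axis) for every probe set of the 12 genes with more than 1; blue marks are the probe sets that stand for a gene, grey and open marks the others, and grey lines span the 3 pools. Both Gbp2 marks lie above 3, while those of H2-D1, H2-K1, Tapbp, Stat2 and Parp14 spread widely or change sign.

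The peptide supply genes varied with the array that stood apart. Tapbp, or tapasin, which holds class I molecules at the peptide pump, read 2.14 on it against 6.80 to 8.59 elsewhere. It was higher in ALDH-positive cells of each pool, by 0.68, 6.35 and 0.42 (mean 2.48, SE 1.18), and by 0.55 without pool 2, while its other probe set differed by 0.034, and by 0.39 without pool 2. Tap1 read 5.26, 7.62 and 5.76 in the ALDH-negative samples against 4.82, 5.5 and 5.05 in the ALDH-positive samples, a difference of -1.09 (SE 0.69), and -0.57 without pool 2. Its next brightest probe set was lower in pool 2 alone, with 0.19, -1.59 and 0.042, and differed by 0.12 without pool 2. Tap2, its partner in the pump, differed by -1.02 (SE 0.86), and by 0.10 without pool 2.

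The immunoproteasome subunits Psmb8, Psmb9 and Psmb10 replace the catalytic subunits of the standard proteasome. Psmb8 read 6.39, 3.0 and 3.09 in the ALDH-negative samples against 5.97, 5.88 and 3.01 in the ALDH-positive samples. Pool 1 was bright in both fractions and pool 3 dim in both, and the difference was 0.79 (SE 0.83), and -0.25 without pool 2. Psmb9 read 6.04, 3.24 and 4.65 against 5.48, 5.41 and 4.36, a difference of 0.44 (SE 0.77), and -0.42 without pool 2. Psmb10 read 6.31, 7.88 and 6.09 against 6.56, 6.47 and 5.87, a difference of -0.46 (SE 0.68), which became 0.15 without quantile normalization, 0.31 on median-centred arrays and 0.021 without pool 2.

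The genes Psmb9 and Tap1 are transcribed away from each other, and 225 bases lie between their annotated starts. This stretch, chr17:34187331-34187555 of GRCm38.p6, is shown 5' to 3' on the strand of Tap1 because the array that stood apart read Psmb9 at its lowest and Tap1 at its highest. It holds neither motif, and so has no capitals.
Psmb9 to Tap1: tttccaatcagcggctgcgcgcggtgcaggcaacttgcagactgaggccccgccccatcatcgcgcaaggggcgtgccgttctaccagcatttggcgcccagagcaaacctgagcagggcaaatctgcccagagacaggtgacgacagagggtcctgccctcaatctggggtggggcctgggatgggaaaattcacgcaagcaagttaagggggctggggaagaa
On the other 5 arrays Psmb9 ranged from 4.36 to 6.04 and Tap1 from 4.82 to 5.76.

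Levels of class I genes also differed between pools within a fraction. Of the 9 genes, 6 were lower in pool 3 than in pool 1 in both fractions and 2 were higher in both, beside 26.1% and 42.4% of all genes. The median of pool 3 minus pool 1 was -1.12 among ALDH-positive samples and -1.11 among ALDH-negative samples, against 0.15 and 0.13 over all genes. With 1 sample per pool and fraction these shifts have no test. For the antiviral genes the corresponding medians were -0.45 and 0.18.

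Other genes of the pathway were taken from lists by role. Of 8 interferons and receptors, 0 of the 5 tested reached an unadjusted p under 0.05 in the limma fit. The ligand genes Ifnb1 and Ifng lay below the filter level on all 6 arrays. The receptor chain Ifnar2 differed by 1.79 (SE 1.01) with 2.72 on the array that stood apart, and Ifngr2 and Ifnar1 by -0.84 (SE 0.78) and -0.65 (SE 0.66). Without pool 2 Ifnar2 differed by 0.32, Ifngr2 by 0.017 and Ifnar1 by -0.41. Of 16 kinases, sensors and regulators, 1 of the 14 tested, Tlr3, did so. Tlr3, the endosomal sensor of double-stranded RNA, read 2.46, 1.91 and 2.01 in the ALDH-negative samples against 3.52, 3.76 and 4.03 in the ALDH-positive samples. Its fractions did not overlap, and it passed the filter only through its ALDH-positive samples. The difference was 1.64 (SE 0.65; limma unadjusted p = 0.0375, adjusted p = 0.895).

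Among 25 other interferon-stimulated genes, 0 of the 21 tested reached that level, with a median of 0.26 and 16 higher against 9 lower. The interferon gamma-induced GTPases Igtp and Irgm1 differed by 1.28 (SE 0.67) and 1.39 (SE 0.79). Rtp4, a receptor chaperone induced by type I interferon, differed by -1.49 (SE 0.79), and by -0.57 without pool 2, and its ALDH-positive values all lay below its ALDH-negative ones. Peptide loading genes had a median of 0.97 and those of the standard proteasome 1.92, but the medians without pool 2 were -0.041 and 0.37. The chaperone Pdia3 differed by 0.012, 4.64 and 1.04 in pools 1 to 3. Of the standard proteasome genes, 1 of the 8 tested, Psma7, reached that level. Psma7, an alpha subunit of the core, differed by -0.28, 4.08 and 2.83 in pools 1 to 3, with overlapping fractions. Its mean difference was 2.21 (SE 0.92, limma unadjusted p = 0.0457, adjusted p = 0.895), and 1.28 without pool 2. Of 6 class II genes, 0 of the 5 tested reached that level, and all 6 had their highest value on the array that stood apart, beside 44.2% of all genes.

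Markers of other cells were read beside these results. The 9 surface epithelium markers were all higher in ALDH-positive cells of each pool, and their mean level was 4.22 to 4.53 in ALDH-negative and 7.48 to 8.23 in ALDH-positive cells, so that they moved with Gbp2, Oasl2 and Ifitm3. Their part in the result was not tested. The mean level of 13 leukocyte markers was 2.56 to 3.86 in ALDH-negative and 2.50 to 3.34 in ALDH-positive cells, and 2 of the 13 were higher in ALDH-positive cells, or 9 of the 13 without pool 2. Their median difference was -0.29, and 0.17 without pool 2, and their part in the results was not tested. Ptprc, the common leukocyte antigen, read 1.90, 5.33 and 2.64 in the ALDH-negative samples against 1.90, 1.85 and 3.41 in the ALDH-positive samples. The 8 macrophage and dendritic markers had mean levels of 1.88 to 3.04 and 1.95 to 2.52, and the 6 endothelial ones 2.84 to 3.67 and 2.63 to 3.03. Granulosa markers (5 genes) gave 3.68 to 6.53 and 5.41 to 6.14, and steroidogenic ones (4 genes) 4.48 to 7.94 and 7.02 to 7.51. In both lists the lowest mean level was that of the array that stood apart. The median difference was 0.40 for granulosa and 0.63 for steroidogenic markers, but -0.087 and -0.67 without pool 2. That of macrophage and dendritic markers was -0.32, and 0.35 without pool 2. The part of these cells in the results was not tested.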

How the data were processed

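The authors' deposited table gives log2 signal of 45101 probe sets on 6 Affymetrix mouse arrays, per the series design; the log2 scale was taken from the value range, 0.035 to 13.1. Per the labels' protocols, cDNA was amplified with a whole-transcriptome kit and biotin-labelled. How signals were summarised and normalized is not stated in those sources; the series design names GeneSifter for the analysis. After removal of 64 control probe sets, arrays, whose medians differed by 0.46, were quantile normalized. Probe sets in the lower 40% by mean were not tested. Fractions were compared with limma 3.58.1 (R 4.3.3, two-sided), with the pool as a blocking term. P-values were adjusted by Benjamini-Hochberg across 27022 probe sets (threshold 0.05). The fit was tested on simulated data with equal noise on every array, no pool effect and no array that stood apart. That test does not show how the fit performs on these arrays. The pairing comes from the series design, which names a paired SAM analysis (not run here); deviations of same-numbered arrays correlated at 0.38, -0.19 and 0.35 in pools 1, 2 and 3. The 3 pools are separate. The p-values rest on a spread over pools that eBayes draws toward a value shared by all probe sets tested. A gene whose pools agree thus keeps a large SE, as Bst2 does (SD of the 3 pools 0.11, SE 0.63). An SE is eBayes-moderated, and the number of arrays limits the precision. Names come from GEO's platform annotation, looked up through Entrez identifiers (34741 of 34945 single-symbol probe sets matched), which changed 0 symbols. The 932 probe sets with several symbols named no gene. All 33 members were named by rule. From the other lists any gene with an unadjusted p under 0.05 and up to 3 more of smallest p were eligible, with Ptprc, Krt19 and Actb as references. Beyond this, Ifnb1, Ifng and Gbp7 were named. The members and lists were chosen with earlier results of these data known. Promoters came from RefSeq (GRCm38.p6). Alternatives covered scaling, filter, block, array weights, probe set averaging and left-out pools.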

Additional observations from a re-analysis of the deposited data

How the results depend on the processing

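With array weights 4 of the 23 tested members passed, beside 2953 of the 27022 probe sets tested, against 0 and 0 without weights. The weights are estimated from the same 6 arrays. Leaving out each pool in turn gave 0 to 7 probe sets (7 without pool 1) and 0 members throughout, and in these fits the spread rests on 2 pools. The fit without the replicate block called 0 probe sets (limma, 542 at an unadjusted p under 0.05 against 661) and changed no other call. Values as deposited, median-centred arrays, no filter, averaged probe sets and, chosen after seeing the data, a fit that dropped the array that stood apart and the pool term also called 0 members. The medians of the 3 groups moved by less than their SD over pools in every alternative, though class I was -0.076 and signalling -0.052 with array weights, and signalling -0.14 as deposited. Gbp2, Oasl2 and Ifitm3 kept their direction in all of them. Each was higher in all 3 pools, so leaving out a pool, the filter or the block, or weighting arrays, could not change this. Gbp2 ranged from 2.21 (array weights) to 4.28 (without pool 3).

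Some uncalled members changed sign; the cause was not tested. As deposited, Irf7 was -0.13, Irf9 -0.15, Psmb10 0.15 and H2-D1 0.33. Median-centred, Ifit3 was 0.062, Psmb10 0.31 and H2-D1 0.50. With array weights, Ifit3 was 0.16, Mx1 0.085, Oas1a 0.20, Stat2 0.19, Irf1 -0.21, Irf9 -0.52, Bst2 -0.026, Psmb8 -0.076 and Psmb9 -0.29. With averaged probe sets, Stat2 was 0.025, Parp14 -0.012 and Xaf1 -0.051. Without the array that stood apart, Ifit3 was 0.38, Mx1 0.32, Oas1a 0.33, Stat2 0.23, Irf9 -0.20, Rsad2 0.14, Psmb9 -0.26 and Psmb10 0.10.

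Over the fits that leave out 1 pool each, the ranges of members that changed sign were H2-D1 -0.60 to 0.049, Ifi35 -1.78 to 0.44, Ifit3 -1.49 to 0.55, Irf1 -0.23 to 0.21, Irf7 -0.12 to 0.21, Irf9 -0.59 to 0.43, Mx1 -0.60 to 0.29, Oas1a -1.70 to 0.53, Psmb10 -0.81 to 0.021, Psmb8 -0.25 to 1.40, Psmb9 -0.42 to 0.93, Rsad2 -0.98 to 0.30, Stat2 -0.84 to 0.069, Tap2 -1.63 to 0.10 and Usp18 -0.47 to 0.32. Values below the filter level, which hold 8 of the 31 members, limit the folds.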
